A study of Homo sapiens with 9 samples.

Results

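The genes described here are 40 target genes of the p53 pathway, TRIML2 among them, measured by RNA sequencing in A549 cells after Cyclin K was depleted. The members were taken from a fixed list of symbols, and each was looked up in the symbol column of the deposited expression files. That list was chosen with earlier results of these data known, so the members' shares beside all genes are a description. All 40 were found, of 31080 reference genes in the files, and all 40 were among the 21048 genes that passed the filter on low values (3 or more libraries at an FPKM of 0.1 or above). SPATA18 passed it only through its siCyclinK#1 libraries, so that its difference from siCtrl is partly built into the filter. FPKM is the number of sequenced fragments per unit of gene length and library depth.

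A549 is a human lung cancer cell line. The cells were transfected for 48 h with a control siRNA (siCtrl) or with 1 of 2 siRNAs against Cyclin K (siCyclinK#1 and siCyclinK#2), and 3 libraries of total RNA were sequenced in each group, 9 in all. All groups are the same line without an added gene, all were transfected, and the knockdown is transient. The labels do not say whether the 3 libraries of a group came from separate cultures, and the p-values measure only the spread between these libraries.

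p53 is a transcription factor that is held at a low level by the ubiquitin ligase MDM2 and rises when DNA is damaged or transcription is disturbed. It binds response elements near its target genes, whose products arrest the cell cycle, repair DNA, adjust metabolism, trigger apoptosis or feed back on p53 itself. A549 cells carry p53 without a mutation. Cyclin K is the partner of CDK12 and CDK13, kinases that act on RNA polymerase II during transcription. In bulk libraries, fewer cells with a transcript and less transcript per cell cannot be told apart.

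CCNK, which encodes Cyclin K, measured 7.02 ± 0.107 FPKM with siCtrl, 0.809 ± 0.0857 with siCyclinK#1 and 0.844 ± 0.0661 with siCyclinK#2 (SD, n = 3), and all 6 siCyclinK libraries were below all siCtrl libraries. The depth recovered from the values was 31333770 to 33767960 reads per library. Of the 9 markers fixed for A549 that the files hold, KRT8, KRT18, ALDH1A1, NQO1, AKR1C1 and AKR1B10 were at 19.6 FPKM or more in every library, while CDH1 was at 1.19 to 4.60 and KRT19 and EPCAM were at 0.279 or less. Markers of leukocytes and endothelium were at 0.0712 FPKM or less in every library. Of 4 fibroblast markers, COL1A1 ranged from 1.79 to 14.7 FPKM and COL1A2, PDGFRB and DCN were at 0.136 or less. MTAP, a gene that A549 has lost, was on a row joined with other transcripts, at 0.480 to 0.771 FPKM.

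The promoters of the members were searched for the p53 response element, a stretch of 20 bases made of a pair of decamers. Each decamer has 3 purines, a core of C, 2 bases that are A or T, and G, then 3 pyrimidines. Any other base at a position outside the C and G counted as a mismatch. The search took RefSeq promoters of GRCh38.p14, which run from 250 bases before to 50 after a gene's start. It read the strand of the gene, and as the pattern is its own reverse complement, the other strand is covered too. The search let no spacer stand between the decamers and allowed at most 3 mismatches outside the C and G of the cores. Of the 32 members with a promoter, 8 held a match, against 373 of 27305 gene symbols (1.37%) and 151 of 9556 tested genes (1.58%). A match is a description of the letters and not a bound site, and elements outside this window were not searched. The matches are shown here, 5′ to 3′ on the strand of the gene with the cores in capitals, so that the letters stand beside the levels:
AEN: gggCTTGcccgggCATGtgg
DDB2: aagCTGGtttgaaCAAGccc
FAS: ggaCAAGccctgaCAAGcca
FDXR: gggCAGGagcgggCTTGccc
GDF15: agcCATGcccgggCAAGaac
MDM2: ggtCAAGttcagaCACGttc
PMAIP1: gagCGTGtccgggCAGGtcg
SESN1: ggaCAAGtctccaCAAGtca
The DDB2 match lies at chr11:47214969-47214988 with 1 mismatch. With 2 mismatches each, the match of AEN lies at chr15:88621306-88621325, that of FAS at chr10:88991309-88991328 and that of MDM2 at chr12:68808923-68808942, all on the plus strand. With 3 mismatches each, FDXR matched at chr17:74872996-74873015 and SESN1 at chr6:109009018-109009037, both on the minus strand, and GDF15 at chr19:18386186-18386205 and PMAIP1 at chr18:59899811-59899830 on the plus strand. The 8 genes did not move as one. With siCyclinK#1, 6 of them rose (AEN, DDB2, FAS, FDXR, MDM2 and SESN1) while GDF15 and PMAIP1 fell, shares near those of all 40 members (67.5% higher and 17.5% lower). The calls of FAS and PMAIP1 were lost when some single libraries were left out. The values of each gene are given in its group.

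With siCyclinK#1, TRIML2 rose the most of the 40 members, by 3.88 on the log2 scale, followed by BTG2 (3.33), BBC3 (2.44), FDXR (2.29) and SESN2 (2.15). CCNG1 and the TRAIL receptor TNFRSF10B fell the most, with log2 changes of -1.05 and -0.91. Differences were tested with limma on log2(FPKM + 0.1) over all 21048 genes, and called at a Benjamini-Hochberg adjusted p under 0.05. All fold changes are on this scale, which understates the change of genes at low levels. With siCyclinK#1, 27 of the 40 members were higher than in siCtrl, 7 were lower and 6 did not pass. SPATA18, which the filter favours, is 1 of the 27. In this comparison 26.8% of all tested genes were higher and 18.1% lower, and of the 11243 genes whose FPKM averaged 1 or more, a level that 39 of the 40 members reached, 36.5% were higher and 27.8% lower. The median log2 change of the members was 0.67, beside 0.10 over all tested genes.

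With siCyclinK#2, TRIML2 again rose the most (3.39 on the log2 scale), and FDXR, XPC, BTG2 and BBC3 rose by 1.04 to 1.37. TP53INP1, CDKN1A and PMAIP1 were the members that fell the most, with log2 changes of -0.89, -0.88 and -0.87. Of the 40, 16 members were higher, 10 were lower and 14 did not pass. Of all tested genes 19.8% were higher and 15.2% lower, and of the genes averaging 1 FPKM or more, 31.1% were higher and 22.4% lower. The members' median log2 change was 0.06, beside 0.01 over all tested genes. These shares and medians of the members lie near those of the other expressed genes. Both comparisons use the same siCtrl libraries, so their results are not independent of each other.

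**Figure D1:**
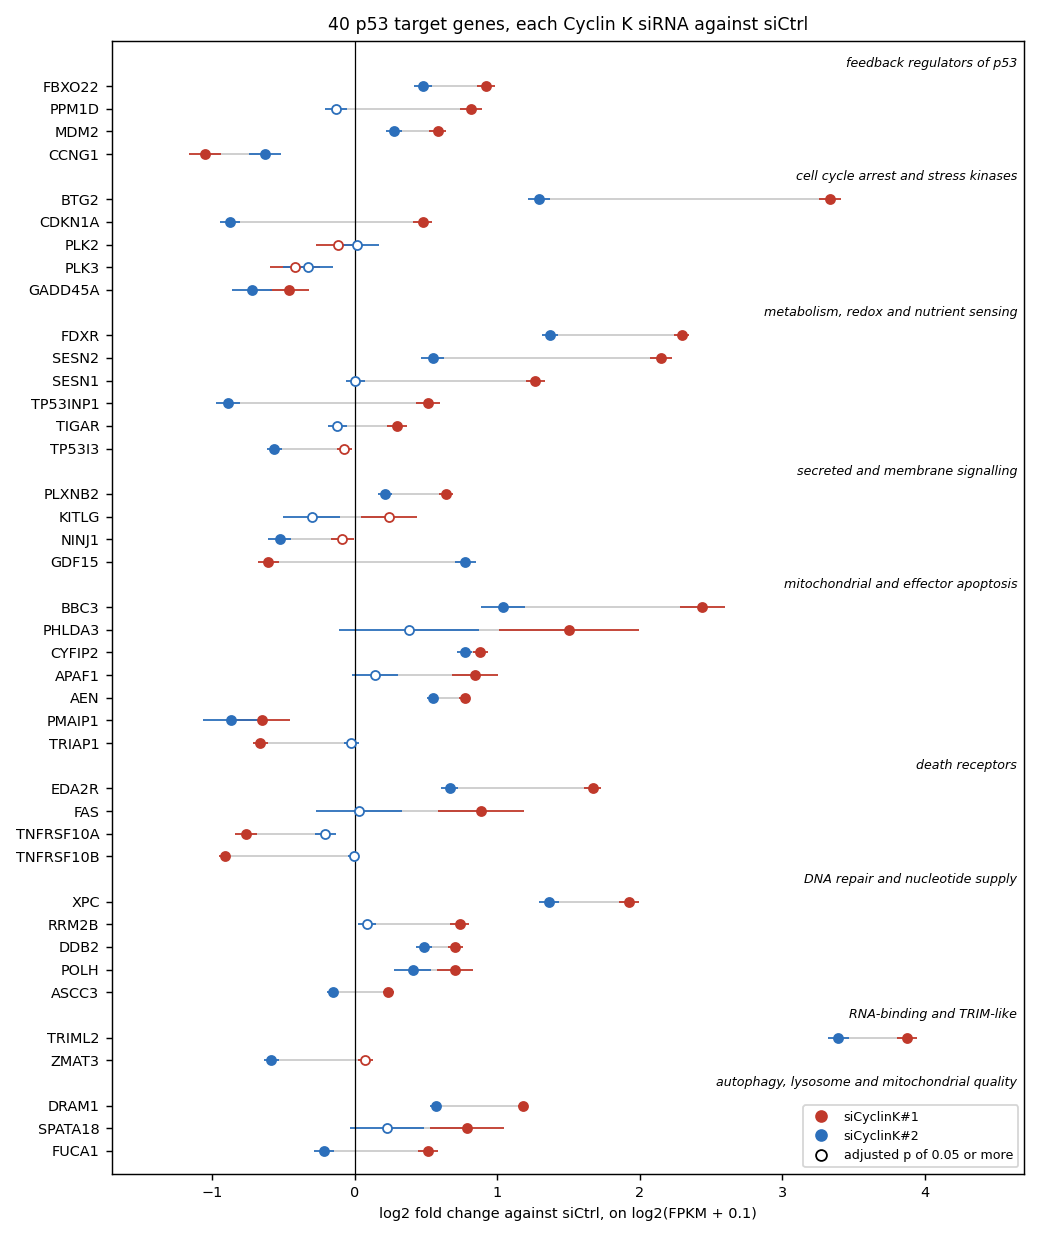
Log2 fold change of each of the 40 members against siCtrl (x axis, on log2(FPKM + 0.1)), ordered by role, for siCyclinK#1 (red) and siCyclinK#2 (blue), with bars for the SE of the limma fit and open points for an adjusted p of 0.05 or more. TRIML2 is far to the right with both siRNAs, at 3.88 and 3.39. The red point lies to the right of the blue one for 33 of the 40 genes. Over all tested genes, 12157 of 21048 were higher with siCyclinK#1 than with siCyclinK#2 in this way, whether called or not.

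When both siRNAs were tested as 1 group (6 libraries against 3), 15 members were higher, 3 were lower and 22 did not pass. In this test of 6 against 3, the count lower was 6 under median-ratio rescaling and 5 under quantile normalization or without siCyclinK#2 replicate 2. A fit of 3 groups with the mean of both effects called 19 higher and 10 lower. The reported counts stand beside 17.0% higher and 11.5% lower over all tested genes and 25.2% and 16.9% over those averaging 1 FPKM or more. In 15 members every siCyclinK library was above every siCtrl library, in 5 every one was below, and in 20 the groups overlapped. Over all tested genes 18.9% were above in this way and 13.7% below, and over those averaging 1 FPKM or more it was 27.5% and 20.2%. By the study's thresholds (p under 0.01 without adjustment, fold change above 3), 7 members were higher with siCyclinK#1 (3.19% of all tested genes were), 1 with siCyclinK#2 (1.08%) and 5 with both together (1.43%).

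The direct comparison of the siRNAs sets their levels against each other without those of siCtrl, but its spread was estimated from all 9 libraries. In it 25 of the 40 members were higher with siCyclinK#1 than with siCyclinK#2 (62.5%), 5 were lower (12.5%) and 10 did not pass. Of all tested genes 17.1% were higher and 12.3% lower (29.4% in either direction), and of those averaging 1 FPKM or more, 23.7% were higher and 20.8% lower. The members' median log2 difference was 0.49, beside 0.08 over all tested genes. CCNK itself was at similar levels with both siRNAs (0.809 ± 0.0857 and 0.844 ± 0.0661 FPKM), and their libraries overlapped.

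**Figure D2:**
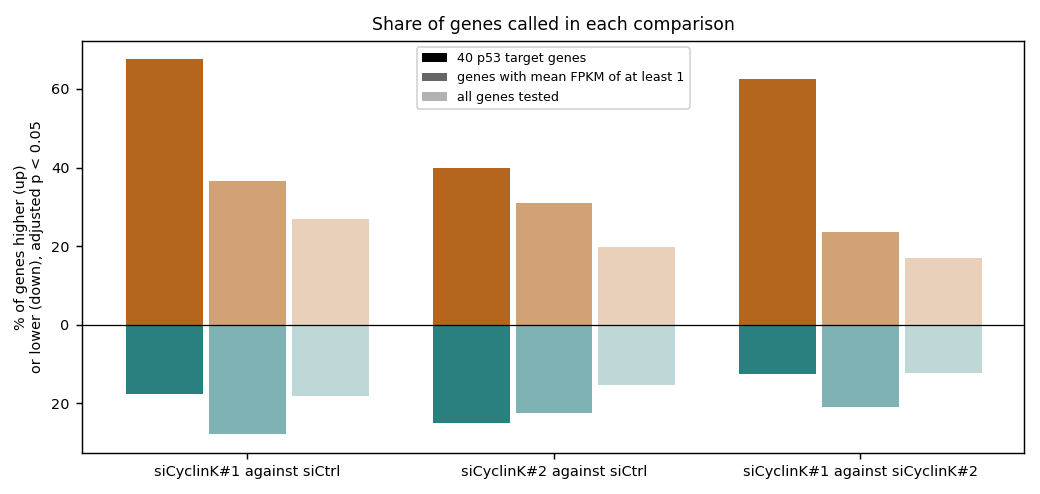
Percentage of genes higher (upward bars) or lower (downward bars) at an adjusted p under 0.05 in 3 comparisons, for the 40 members (dark), genes averaging 1 FPKM or more (middle) and all tested genes (light). Of the 40 members, 27 were higher with siCyclinK#1 and 16 with siCyclinK#2, against 36.5% and 31.1% of the genes averaging 1 FPKM or more.

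TRIML2 encodes a protein of the TRIM-like family and is a known p53 target. It lies on the minus strand of chromosome 4 from 188091273 to 188109603 (GRCh38). Its level was 0.893, 0.937 and 0.788 FPKM in the siCtrl libraries, 14.0, 15.0 and 13.5 with siCyclinK#1 and 10.4, 9.96 and 10.0 with siCyclinK#2. All 6 siCyclinK libraries were far above the siCtrl libraries, and all siCyclinK#1 libraries were above those of siCyclinK#2. The limma fit gave a log2 change of 3.88 ± 0.0713 (SE, limma adjusted p = 6.75e-09) with siCyclinK#1 and 3.39 ± 0.0713 (adjusted p = 3.22e-08) with siCyclinK#2, with an exact two-sided permutation p of 0.0119 for 6 libraries against 3, the smallest that this design allows. The values rest on 78 to 92 recovered reads in the siCtrl libraries, 1357 to 1437 with siCyclinK#1 and 972 to 1017 with siCyclinK#2. TRIML2 ranked 39 of 40 members by mean FPKM in siCtrl, 15 with siCyclinK#1 and 20 with siCyclinK#2. Of its 5 listed TRIM relatives, 2 were tested. TRIM69 rose with both siRNAs, from 0.767 FPKM to 1.73 and 1.13, while TRIM7 gave log2 changes of 0.13 (limma adjusted p = 0.449) and -0.41 (adjusted p = 0.0364).

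ZMAT3, an RNA-binding protein that acts on splicing, fell with siCyclinK#2, from 7.13 ± 0.188 to 4.73 ± 0.218 FPKM (limma adjusted p = 4.60e-05). With siCyclinK#1 it was at 7.53 ± 0.254 FPKM, and the difference from siCtrl did not pass (adjusted p = 0.291).

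Among the feedback regulators of p53, 3 of 4 rose and 1 fell with siCyclinK#1, and 2 rose and 1 fell with siCyclinK#2. The counts of this and the following role groups are a description, as the groups are small. Beside them, 36.5% of the genes averaging 1 FPKM or more were higher and 27.8% lower with siCyclinK#1. With siCyclinK#2 these shares were 31.1% and 22.4%. MDM2, the ubiquitin ligase that marks p53 for degradation, measured 9.26, 8.03 and 8.41 FPKM in the siCtrl libraries, 12.9, 13.1 and 12.5 with siCyclinK#1 and 10.8, 10.0 and 10.3 with siCyclinK#2. The siCyclinK libraries were all above those of siCtrl and the siCyclinK#1 libraries were the highest, with a log2 change of 0.58 ± 0.0583 (SE, limma adjusted p = 4.85e-05) with siCyclinK#1 and 0.28 ± 0.0583 (adjusted p = 0.00579) with siCyclinK#2. Both siRNAs as 1 group gave 0.43 ± 0.107 (limma adjusted p = 0.0136), which no longer passed without siCtrl replicate 2 (0.0663) or without siCtrl replicate 3 (0.0542). FBXO22, a substrate subunit of a ubiquitin ligase, rose with both siRNAs, from 3.98 ± 0.133 to 7.62 ± 0.367 and 5.59 ± 0.336 FPKM. PPM1D, a phosphatase that acts on p53, rose with siCyclinK#1, from 6.58 ± 0.119 to 11.7 ± 1.27 FPKM, and was at 6.02 ± 0.371 with siCyclinK#2 (limma adjusted p = 0.257). CCNG1, which encodes Cyclin G1 and takes part in the MDM2 loop, fell with both, from 25.00 ± 3.17 to 11.99 ± 0.931 and 16.1 ± 1.85 FPKM.

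The genes of cell cycle arrest and stress kinases did not share a direction. With siCyclinK#1, 2 of 5 rose and 1 fell, and with siCyclinK#2, 1 rose and 2 fell. CDKN1A encodes p21, the inhibitor of cyclin-dependent kinases through which p53 arrests the cell cycle. Its level was 33.4, 30.7 and 33.2 FPKM in the siCtrl libraries, 43.0, 48.6 and 44.0 with siCyclinK#1 and 18.7, 18.2 and 16.1 with siCyclinK#2. The siCyclinK#1 libraries were all above siCtrl and the siCyclinK#2 libraries all below it. The changes were 0.48 ± 0.0695 (limma adjusted p = 5.06e-04) and -0.88 ± 0.0695 (adjusted p = 2.04e-05), and with both siRNAs together the difference was -0.20 ± 0.381 (limma adjusted p = 0.742). The direct difference between the siRNAs was 1.35 ± 0.0695 (limma adjusted p = 2.88e-06).

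BTG2, an antiproliferative protein that binds the mRNA deadenylase complex, stood at 2.22, 2.37 and 2.64 FPKM in the siCtrl libraries, 24.4, 26.4 and 24.8 with siCyclinK#1 and 6.44, 6.08 and 5.65 with siCyclinK#2. The 3 groups did not overlap, and siCyclinK#1 was by far the highest. The fit gave a log2 change of 3.33 ± 0.0754 (SE, limma adjusted p = 1.75e-08) with siCyclinK#1 and 1.296 ± 0.0754 (adjusted p = 3.55e-06) with siCyclinK#2, and the siRNAs differed by 2.04 ± 0.0754 (limma adjusted p = 5.96e-07). With both together the adjusted p was 0.0131, and 0.0509 without siCtrl replicate 1. GADD45A, a growth arrest protein induced by DNA damage, was lower with both siRNAs, at 16.3 ± 1.42 FPKM with siCtrl, 11.9 ± 1.46 with siCyclinK#1 and 9.97 ± 1.89 with siCyclinK#2 (SD, n = 3). Its limma adjusted p with siCyclinK#1 was 0.0245, and rose to 0.0828 without siCtrl replicate 1, to 0.0771 without siCyclinK#1 replicate 2 and to 0.0770 without siCyclinK#1 replicate 3. With both siRNAs together the adjusted p was 0.0108, and 0.0568 without siCtrl replicate 1. The stress kinases PLK2 and PLK3 did not pass in any comparison, and siCtrl replicate 1 held the highest PLK2 value, 15.0 FPKM against 9.07 and 10.0 in the other siCtrl libraries. Without it PLK2 was called higher with siCyclinK#2 (log2 change 0.23, adjusted p = 0.0232). Without siCyclinK#2 replicate 2, PLK3 was called lower with each siRNA and with both together (adjusted p = 0.0393, 0.0412 and 0.0377), and without siCyclinK#2 replicate 1 it was called lower with siCyclinK#1 (0.0290). Under median-ratio rescaling and quantile normalization PLK3 was called lower with siCyclinK#1 too (0.0380 and 0.0162).

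In the group of metabolism, redox balance and nutrient sensing, 5 of 6 genes rose with siCyclinK#1, and with siCyclinK#2 2 rose and 2 fell. With siCyclinK#1, 67.5% of all 40 members and 36.5% of the genes averaging 1 FPKM or more were higher. All 6 were higher with siCyclinK#1 than with siCyclinK#2, beside 62.5% of the members and 23.7% of those genes. FDXR, the mitochondrial reductase that passes electrons to ferredoxin, measured 7.39, 7.83 and 7.95 FPKM in the siCtrl libraries, 36.3, 40.1 and 38.5 with siCyclinK#1 and 21.2, 20.1 and 19.1 with siCyclinK#2. The 3 groups were fully apart, with a log2 change of 2.29 ± 0.0554 (SE, limma adjusted p = 2.26e-08) with siCyclinK#1 and 1.37 ± 0.0554 (adjusted p = 5.72e-07) with siCyclinK#2.

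SESN1 and SESN2 encode sestrins, which sense amino acids or stress and restrain mTORC1. SESN2 was at 3.04, 3.36 and 2.96 FPKM in the siCtrl libraries, 14.4, 14.3 and 13.8 with siCyclinK#1 and 4.16, 4.61 and 5.07 with siCyclinK#2. Every siCyclinK library was above every siCtrl library, and siCyclinK#1 far above siCyclinK#2, with a log2 change of 2.15 ± 0.0791 (SE, limma adjusted p = 1.38e-07) with siCyclinK#1 and 0.55 ± 0.0791 (adjusted p = 6.96e-04) with siCyclinK#2. Both siRNAs together gave 1.35 ± 0.452 (limma adjusted p = 0.0492), a call at the threshold that was lost under most other settings and without any siCtrl or siCyclinK#1 library, at adjusted p values of up to 0.131. SESN1 measured 2.44, 2.49 and 2.53 FPKM in the siCtrl libraries, 6.001, 6.40 and 5.998 with siCyclinK#1 and 2.64, 2.54 and 2.32 with siCyclinK#2. It rose by 1.27 ± 0.0665 (limma adjusted p = 9.73e-07) with siCyclinK#1, while the siCyclinK#2 libraries overlapped those of siCtrl (change 0.01, adjusted p = 0.964), and its direction there turned under other scalings. The siRNAs differed by 1.26 ± 0.0665 (limma adjusted p = 3.30e-06).

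TP53INP1, a stress protein linked to autophagy, stood at 3.88, 4.41 and 4.16 FPKM in the siCtrl libraries, 5.52, 6.52 and 5.86 with siCyclinK#1 and 2.34, 2.17 and 2.07 with siCyclinK#2. As with CDKN1A, the siCyclinK#1 libraries were above siCtrl and the siCyclinK#2 libraries below it, with a log2 change of 0.51 ± 0.0839 (SE, limma adjusted p = 0.00102) with siCyclinK#1 and -0.89 ± 0.0839 (adjusted p = 5.53e-05) with siCyclinK#2, and the direct difference was 1.40 ± 0.0839 (limma adjusted p = 6.78e-06). TIGAR, a phosphatase that lowers glycolytic flux, rose by 0.30 ± 0.0695 (limma adjusted p = 0.00694) with siCyclinK#1, a call that was lost under median-ratio rescaling (adjusted p = 0.0622). With siCyclinK#2 TIGAR did not pass (change -0.12), and without siCtrl replicate 1 it was called lower (adjusted p = 0.0445). TP53I3, a quinone oxidoreductase, had 41.6 ± 0.326 FPKM with siCtrl, 39.6 ± 1.06 with siCyclinK#1 and 28.2 ± 2.19 with siCyclinK#2, and was called lower with siCyclinK#2 (limma adjusted p = 6.20e-05). With siCyclinK#1 it did not pass (0.335), but did under median-ratio rescaling (0.0185).

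**Figure D3:**
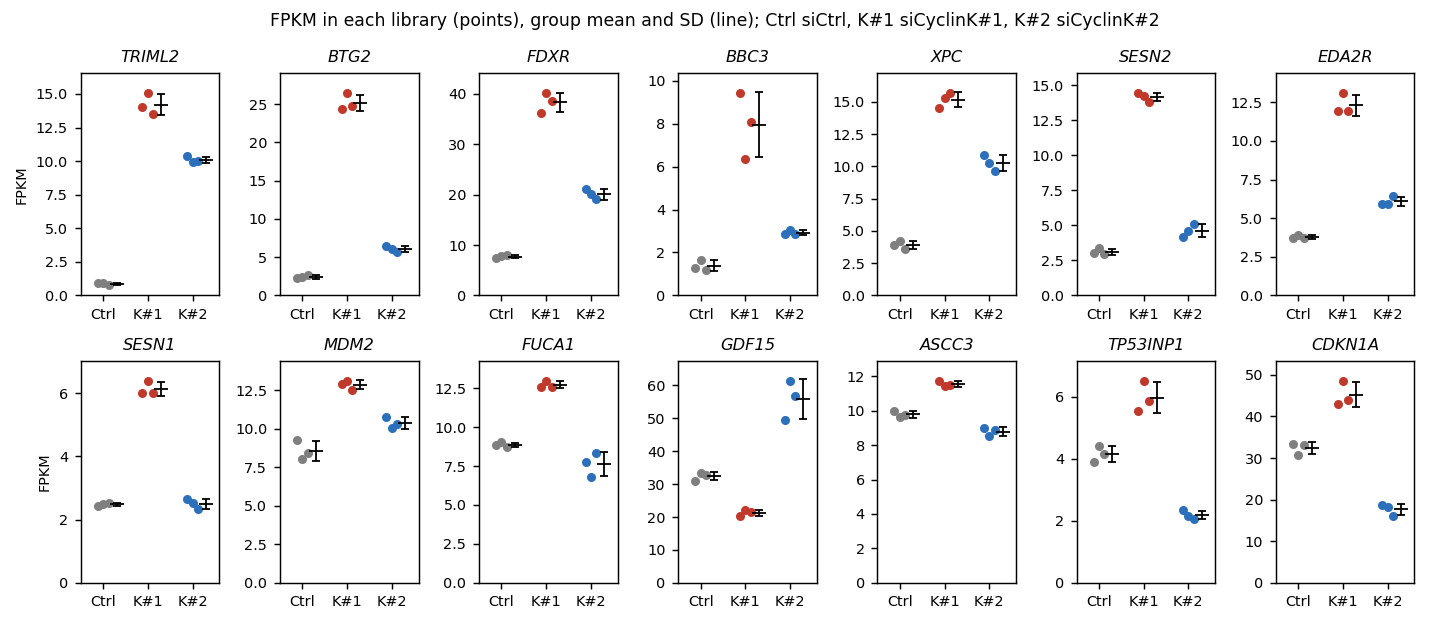
FPKM (y axis, from 0, its own range in each panel) of 14 members in every library, with the group mean and SD (n = 3) beside the points, for siCtrl (grey), siCyclinK#1 (red) and siCyclinK#2 (blue). CDKN1A and TP53INP1 lie above siCtrl with siCyclinK#1 and below it with siCyclinK#2, GDF15 does the reverse, and TRIML2, FDXR and XPC are far above siCtrl with both.

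Of 7 genes of mitochondrial and effector apoptosis, 5 rose and 2 fell with siCyclinK#1, while with siCyclinK#2 3 rose and 1 fell. With siCyclinK#1, 67.5% of all 40 members and 36.5% of the genes averaging 1 FPKM or more were higher. BBC3 encodes PUMA, a BH3-only protein that frees the death effectors of the BCL2 family. It was at 1.26, 1.67 and 1.21 FPKM in the siCtrl libraries, 9.40, 6.37 and 8.08 with siCyclinK#1 and 2.85, 3.06 and 2.84 with siCyclinK#2. The groups did not overlap, and the siCyclinK#1 libraries spread the most. The fit gave a log2 change of 2.44 ± 0.156 (SE, limma adjusted p = 3.17e-06) with siCyclinK#1 and 1.04 ± 0.156 (adjusted p = 8.76e-04) with siCyclinK#2, with a direct difference of 1.40 ± 0.156 (limma adjusted p = 2.23e-04). PMAIP1, which encodes the related BH3-only protein NOXA, moved the other way, at 10.3, 14.8 and 14.9 FPKM in the siCtrl libraries against 8.24, 8.34 and 8.46 with siCyclinK#1 and 8.71, 7.95 and 5.27 with siCyclinK#2. All 6 siCyclinK libraries were below siCtrl, and siCtrl replicate 1 was the lowest of its group. The fit gave a log2 change of -0.65 ± 0.197 (SE, limma adjusted p = 0.0255) with siCyclinK#1 and -0.87 ± 0.197 (adjusted p = 0.00831) with siCyclinK#2. The siCyclinK#1 call was lost without siCtrl replicate 2 (0.0835), without siCtrl replicate 3 (0.0841) and without siCyclinK#1 replicate 1, 2 or 3 (0.0571 to 0.0628). With both siRNAs together the adjusted p was 0.00969, and 0.0518 or 0.0519 without siCtrl replicate 2 or 3.

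APAF1, the scaffold of the apoptosome, rose with siCyclinK#1 (change 0.85 ± 0.161, limma adjusted p = 0.00243). Its siCyclinK#2 libraries were at 4.93, 8.21 and 7.48 FPKM around a siCtrl mean of 6.08, and without the first of them the rise was called there too (0.36, limma adjusted p = 0.00501), as was that with both siRNAs together (0.0113). AEN, a nuclease that promotes apoptosis, and CYFIP2, a subunit of the WAVE complex that also binds FMRP, rose with both siRNAs. AEN had 9.52 ± 0.247 FPKM with siCtrl, 16.3 ± 0.366 with siCyclinK#1 and 14.0 ± 0.171 with siCyclinK#2, and CYFIP2 had 6.06 ± 0.177 FPKM with siCtrl, 11.2 ± 0.216 with siCyclinK#1 and 10.4 ± 0.609 with siCyclinK#2 (SD, n = 3). TRIAP1, a mitochondrial protein that restrains apoptosis, fell with siCyclinK#1, from 47.6 ± 2.39 to 30.0 ± 0.204 FPKM, and was at 46.9 ± 3.11 with siCyclinK#2 (limma adjusted p = 0.780). PHLDA3, an inhibitor of AKT, shares its row with the transcript AC096677.2, and the values of the pair cannot be told apart. The row was at 3.78, 14.6 and 13.5 FPKM in the siCtrl libraries, 28.7, 24.9 and 24.6 with siCyclinK#1 and 7.46, 16.04 and 14.0 with siCyclinK#2, with siCtrl replicate 1 and siCyclinK#2 replicate 1 the lowest. It was called higher with siCyclinK#1 (change 1.504 ± 0.490, limma adjusted p = 0.0344), which was lost without any 1 of the siCyclinK#1 libraries (0.0694 to 0.0868). Without siCtrl replicate 1 the direct difference between the siRNAs was called (adjusted p = 0.0138).

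Of 4 death receptors, 2 rose and 2 fell with siCyclinK#1, and 1 rose with siCyclinK#2. EDA2R, a receptor of ectodysplasin, rose with both siRNAs, while the TRAIL receptors among the members, TNFRSF10A and TNFRSF10B, were lower with siCyclinK#1. EDA2R measured 3.74, 3.94 and 3.70 FPKM in the siCtrl libraries, 11.9, 13.1 and 11.9 with siCyclinK#1 and 5.95, 5.89 and 6.42 with siCyclinK#2. The groups were apart, with a log2 change of 1.67 ± 0.0594 (SE, limma adjusted p = 1.19e-07) with siCyclinK#1 and 0.67 ± 0.0594 (adjusted p = 4.01e-05) with siCyclinK#2 and a direct difference of 1.00 ± 0.0594 (limma adjusted p = 6.38e-06). TNFRSF10B, the TRAIL receptor DR5, had 38.3 ± 1.44 FPKM with siCtrl, 20.3 ± 0.604 with siCyclinK#1 and 38.1 ± 0.759 with siCyclinK#2 (SD, n = 3), a log2 change of -0.91 ± 0.0390 with siCyclinK#1 (limma adjusted p = 3.21e-07) and of -0.01 ± 0.0390 with siCyclinK#2 (adjusted p = 0.913). TNFRSF10A, the TRAIL receptor DR4, had 17.02 ± 0.488 FPKM with siCtrl, 10.00 ± 0.352 with siCyclinK#1 and 14.8 ± 1.62 with siCyclinK#2, and it changed by -0.76 ± 0.0752 (limma adjusted p = 4.48e-05) and -0.21 ± 0.0752 (adjusted p = 0.0659). The siCyclinK#2 difference of TNFRSF10A passed under both other scalings (0.0295 and 0.0351) and without siCyclinK#2 replicate 3 (0.0186). Both siRNAs together gave -0.48 ± 0.171 (limma adjusted p = 0.0605), which passed without siCyclinK#2 replicate 2 (0.0376) or replicate 3 (0.0203). It also passed under median-ratio rescaling (0.0489), under quantile normalization (0.0423) and over genes averaging 1 FPKM or more (0.0466). FAS, the receptor of FAS ligand, varied within groups, at 3.76, 2.59 and 3.45 FPKM in the siCtrl libraries, 7.504, 7.60 and 3.89 with siCyclinK#1 and 3.93, 2.28 and 4.01 with siCyclinK#2. The call with siCyclinK#1 (limma adjusted p = 0.0413) was lost under other settings and without any siCtrl library or siCyclinK#1 replicate 1 or 2 and siCyclinK#2 replicate 1, at up to 0.129, while without siCyclinK#1 replicate 3 FAS was called higher with siCyclinK#1 than with siCyclinK#2 (0.0127).

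All 5 genes of DNA repair and nucleotide supply rose with siCyclinK#1, and with siCyclinK#2 3 rose and 1 fell. With siCyclinK#1, 67.5% of all 40 members and 36.5% of the genes averaging 1 FPKM or more were higher. XPC, which recognises damage in nucleotide excision repair, measured 3.92, 4.23 and 3.63 FPKM in the siCtrl libraries, 14.5, 15.3 and 15.7 with siCyclinK#1 and 10.9, 10.2 and 9.66 with siCyclinK#2. The groups did not overlap, with a log2 change of 1.92 ± 0.0689 (SE, limma adjusted p = 1.21e-07) with siCyclinK#1 and 1.37 ± 0.0689 (adjusted p = 1.60e-06) with siCyclinK#2. DDB2, which finds ultraviolet damage in chromatin, had 7.80 ± 0.472 FPKM with siCtrl, 12.8 ± 0.326 with siCyclinK#1 and 10.97 ± 0.306 with siCyclinK#2 (SD, n = 3), a rise with each siRNA. The direct difference of DDB2, 0.22 ± 0.0529 (limma adjusted p = 0.0133), did not pass under median-ratio rescaling (0.0941). RRM2B, the p53-inducible subunit of ribonucleotide reductase, rose with siCyclinK#1 from 9.61 ± 0.497 to 16.1 ± 0.463 FPKM, and was at 10.2 ± 0.836 with siCyclinK#2 (limma adjusted p = 0.353). POLH, a polymerase that copies past damaged bases, had 2.79 ± 0.546 FPKM with siCtrl, 4.57 ± 0.271 with siCyclinK#1 and 3.70 ± 0.252 with siCyclinK#2. Its call with siCyclinK#2 (limma adjusted p = 0.0379) was lost under other settings and without siCtrl replicate 1 or 2, siCyclinK#1 replicate 2 or 3, or siCyclinK#2 replicate 1 or 2, at up to 0.105, and that with both siRNAs together (0.0162) without siCtrl replicate 1 (0.0588) or 2 (0.0827). ASCC3, a helicase used in the repair of alkylated DNA, was at 10.0, 9.62 and 9.75 FPKM in the siCtrl libraries, 11.7, 11.4 and 11.5 with siCyclinK#1 and 8.998, 8.52 and 8.87 with siCyclinK#2. The siCyclinK#1 libraries were above siCtrl and the siCyclinK#2 libraries below, but the changes were small (0.24 and -0.15). The former was lost under median-ratio rescaling (adjusted p = 0.0579), and the latter without siCtrl replicate 1 (0.0567) or siCyclinK#2 replicate 2 (0.0572).

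In the group of autophagy, lysosome and mitochondrial quality, DRAM1 and FUCA1 rose with siCyclinK#1, and with siCyclinK#2 DRAM1 rose and FUCA1 fell. SPATA18 passed the filter only through its siCyclinK#1 libraries and is given by its values. DRAM1, a lysosomal protein that promotes autophagy, rose from 12.4 ± 0.235 to 28.3 ± 0.740 and 18.4 ± 0.444 FPKM, and its groups did not overlap. FUCA1, a lysosomal fucosidase, measured 8.82, 9.02 and 8.75 FPKM in the siCtrl libraries, 12.6, 12.99 and 12.6 with siCyclinK#1 and 7.74, 6.83 and 8.37 with siCyclinK#2. Its siCyclinK#1 libraries were above siCtrl and its siCyclinK#2 libraries below, with a log2 change of 0.52 ± 0.0691 (SE, limma adjusted p = 2.97e-04) with siCyclinK#1 and -0.22 ± 0.0691 (adjusted p = 0.0396) with siCyclinK#2. The fall with siCyclinK#2 was lost without any 1 of 8 libraries, siCyclinK#2 replicate 3 being the exception, at up to 0.102. SPATA18, a protein of mitochondrial quality control, was near the filter's limit, at 0.0360, 0.0381 and 0.0686 FPKM in the siCtrl libraries, 0.188, 0.103 and 0.178 with siCyclinK#1 and 0.0756, 0.0914 and 0.0508 with siCyclinK#2. These values rest on 6 to 30 recovered reads. Its call with siCyclinK#1 (limma adjusted p = 0.0365) was lost without siCtrl replicate 1 or 2 (0.0963 and 0.0926), and without a siCyclinK#1 library it did not reach the filter.

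Among the secreted and membrane signalling genes, 1 of 4 rose and 1 fell with siCyclinK#1, and 2 rose and 1 fell with siCyclinK#2. GDF15, a secreted cytokine of the stress response, was at 31.0, 33.5 and 32.8 FPKM in the siCtrl libraries, 20.4, 22.1 and 21.4 with siCyclinK#1 and 49.4, 61.4 and 56.7 with siCyclinK#2. It moved opposite to CDKN1A, below siCtrl with siCyclinK#1 and above it with siCyclinK#2, with a log2 change of -0.60 ± 0.0750 (SE, limma adjusted p = 1.88e-04) with siCyclinK#1 and 0.78 ± 0.0750 (adjusted p = 6.33e-05) with siCyclinK#2. The direct difference was -1.38 ± 0.0750 (limma adjusted p = 4.03e-06). PLXNB2, a semaphorin receptor, rose with each siRNA, at 10.9 ± 0.316 FPKM with siCtrl, 17.00 ± 0.823 with siCyclinK#1 and 12.6 ± 0.445 with siCyclinK#2 (SD, n = 3). With both siRNAs together it gave 0.43 ± 0.132 (limma adjusted p = 0.0370), and this call was lost without any 1 siCtrl or siCyclinK#1 library (0.0526 to 0.115). Its call with siCyclinK#2 was lost under quantile normalization (0.0561). NINJ1, a membrane protein of plasma membrane rupture, fell with siCyclinK#2, from 13.6 ± 1.40 to 9.37 ± 0.222 FPKM, and was at 12.8 ± 0.843 with siCyclinK#1. KITLG, the ligand of the receptor KIT, did not pass in any comparison, and siCyclinK#2 replicate 2, at 4.25 FPKM, lay below the rest of its group (7.70 and 7.53). Without that library KITLG was called higher with siCyclinK#1 than with siCtrl (adjusted p = 0.0137) and than with siCyclinK#2 (0.0252). Without siCyclinK#2 replicate 1 the latter difference also passed (0.0442).

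Over 2-fold differences between the siRNAs at an adjusted p under 0.05 were found in 8 members (CDKN1A, TP53INP1, SESN1, SESN2, GDF15, BBC3, BTG2 and EDA2R), beside 5.64% of all tested genes and 4.64% of those averaging 1 FPKM or more. Of these 8, GDF15 was the member that was lower with siCyclinK#1. The direct difference of CCNG1, -0.42 ± 0.111 (limma adjusted p = 0.0204), was lost without siCyclinK#1 replicate 2 or 3 or siCyclinK#2 replicate 1 or 3 (0.0596 to 0.0700). The 10 members whose direct difference did not pass were PMAIP1, FAS, POLH, GADD45A, PLK2, PLK3, PHLDA3, SPATA18, CYFIP2 and KITLG. Of these, POLH passed without siCtrl replicate 3 (0.0475) and GADD45A without siCyclinK#2 replicate 2 (0.0337). As given in their groups, FAS, PHLDA3 and KITLG also passed without some single libraries. FAS passed over genes averaging 1 FPKM or more (limma adjusted p = 0.0479), and SPATA18 in a fit by eBayes without trend (limma adjusted p = 0.0427). For CYFIP2 the 95% interval of the log2 difference was -0.01 to 0.23, and for PHLDA3 0.00 to 2.24.

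Both siRNA guides could pair with other transcripts through their seed (bases 2 to 8), and the longest 3′ UTR of each gene was searched for the 7 letters that match it. The match of siCyclinK#1, GTGATAA, was found in 3 of the 40 members (7.5%) and in 11.3% of 11466 tested genes. Of the 3 members, GDF15 and TNFRSF10B (1 match each) were lower with siCyclinK#1, and KITLG (2 matches) did not pass. The match of siCyclinK#2, TACAGGT, was found in 7 members (17.5%; 14.2% of the genes), among them MDM2 and PPM1D with 3 matches each and TP53INP1 with 2. TP53INP1 was lower with siCyclinK#2, MDM2 was higher and PPM1D did not pass. The part of these matches in the differences was not tested. The members spanned a median of 24.99 kb of the genome, beside 12.2 kb for the tested genes with a known span.

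Other lists of the pathway were set beside the members, and these lists too were chosen with earlier results of these data known. Of 20 upstream kinases, ligases and cofactors of p53, 7 were higher (35.0%) and 6 lower (30.0%) with siCyclinK#1, near the 36.5% and 27.8% of all genes averaging 1 FPKM or more. With siCyclinK#2, 8 of the 20 were higher and 3 lower, beside 31.1% and 22.4% of those genes. USP7, a deubiquitinase of MDM2 and p53, was at 29.9 ± 1.54 FPKM with siCtrl, 10.5 ± 0.947 with siCyclinK#1 and 26.1 ± 0.267 with siCyclinK#2 (SD, n = 3). Its direct difference was -1.31 ± 0.0660 (limma adjusted p = 2.60e-06). The longest 3′ UTR of USP7 held 3 matches to the siCyclinK#1 seed, and 11.3% of the tested genes searched held a match. Matches in the other genes of this list are not given, and the part of the matches in the difference was not tested. CREBBP, an acetyltransferase and coactivator of p53, rose with both siRNAs (0.52 and 0.54 on the log2 scale).

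Of 40 other p53 targets that are not among the members, 34 were tested. As this list was also chosen with earlier results known, it is not an independent check of the members. With siCyclinK#1, 21 were higher (61.8%) and 7 lower (20.6%), beside 36.5% and 27.8% of the genes averaging 1 FPKM or more. With siCyclinK#2, 12 were higher (35.3%) and 9 lower (26.5%), near the 31.1% and 22.4% of those genes. In the direct comparison 22 were higher with siCyclinK#1 (64.7%) and 2 lower (5.88%), beside 23.7% and 20.8%, and their median log2 difference was 0.34, beside 0.49 for the 40 members. PERP, a membrane protein of cell adhesion and apoptosis, had 12.1 ± 0.197 FPKM with siCtrl, 74.2 ± 0.815 with siCyclinK#1 and 58.1 ± 1.49 with siCyclinK#2. FAM210B, a mitochondrial protein, had 2.46 ± 0.246 FPKM with siCtrl, 12.8 ± 0.880 with siCyclinK#1 and 6.97 ± 0.246 with siCyclinK#2. RPS27L, a ribosomal protein paralogue, split as CDKN1A did, at 8.50 ± 0.469 FPKM with siCtrl, 13.5 ± 0.436 with siCyclinK#1 and 7.06 ± 0.266 with siCyclinK#2. BAX, the pore-forming death effector, changed little, by 0.17 with siCyclinK#1 (limma adjusted p = 0.00334) and 0.01 with siCyclinK#2 (adjusted p = 0.840). The TRAIL receptors TNFRSF10C and TNFRSF10D were lower with both siRNAs, with log2 changes of -1.05 and -1.10, and of -0.48 and -0.47. TNFRSF10C shares its row with another transcript.

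The cell cycle genes that p53 lowers through p21 and the DREAM repressor complex were taken as a last list, and 19 of 20 were tested. With siCyclinK#1, 4 were higher (21.1%) and 11 lower (57.9%), beside 36.5% and 27.8% of the genes averaging 1 FPKM or more. With siCyclinK#2, 10 were higher (52.6%) and 4 lower (21.1%), beside 31.1% and 22.4%. In the direct comparison 14 were lower with siCyclinK#1 and the other 5 did not pass, beside 12.3% of all tested genes and 20.8% of those averaging 1 FPKM or more lower, and the median log2 difference was -0.48. CDC20, an activator of the anaphase-promoting complex, had 83.5 ± 1.92 FPKM with siCtrl, 27.5 ± 0.584 with siCyclinK#1 and 49.0 ± 1.22 with siCyclinK#2, and CCNB1, which encodes Cyclin B1, had 99.0 ± 1.80 FPKM with siCtrl, 53.6 ± 0.835 with siCyclinK#1 and 76.6 ± 2.15 with siCyclinK#2. CCNB2, which encodes Cyclin B2, and CENPF, a kinetochore protein, were higher with both siRNAs. CCNB2 had 23.5 ± 0.112 FPKM with siCtrl, 31.5 ± 1.32 with siCyclinK#1 and 44.5 ± 0.964 with siCyclinK#2, and CENPF had 22.6 ± 0.782 FPKM with siCtrl, 51.3 ± 1.49 with siCyclinK#1 and 53.8 ± 0.778 with siCyclinK#2. Whether the levels of p21 or the share of dividing cells had a part in these differences was not tested.

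**Figure D4:**
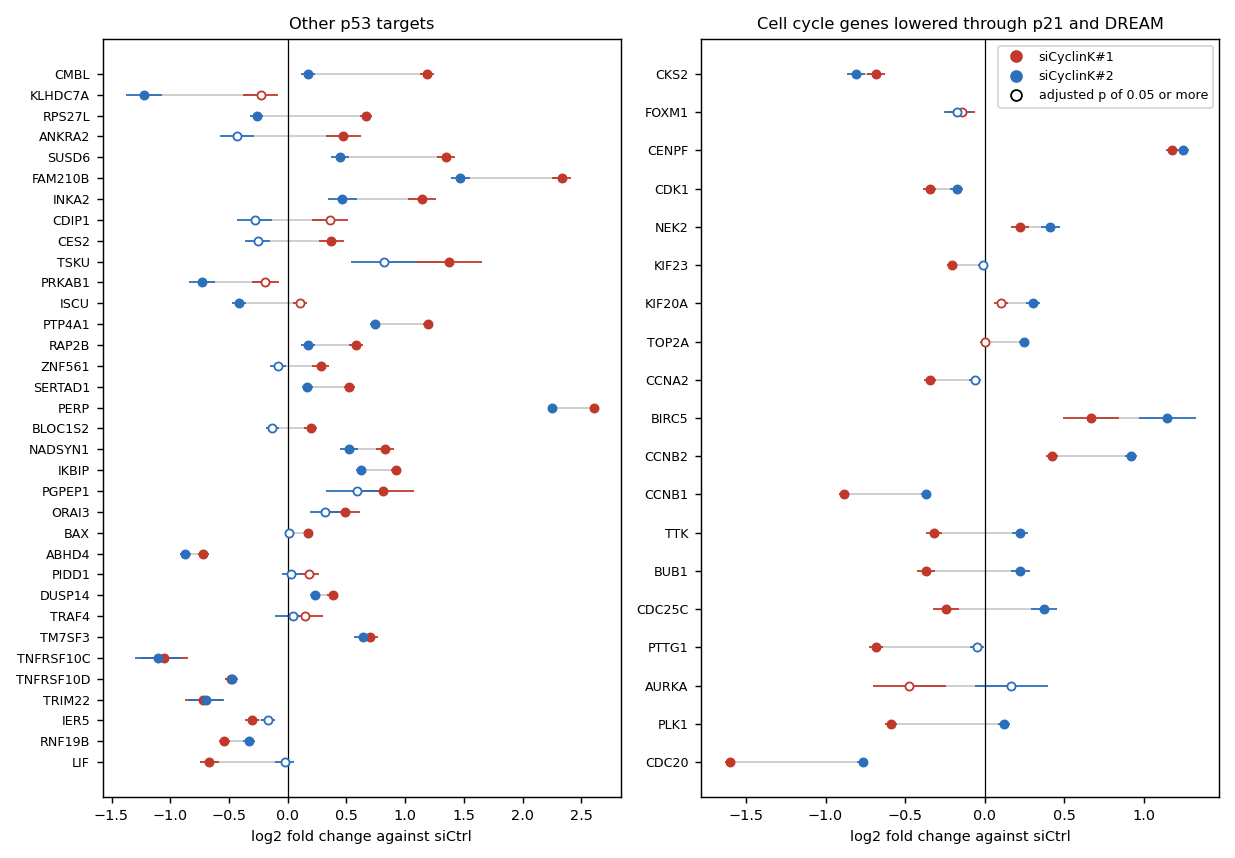
Log2 fold change against siCtrl (x axis) of 34 other p53 targets (left) and 19 cell cycle genes lowered through p21 and DREAM (right), ordered by the difference between the siRNAs, with bars for the SE and open points for an adjusted p of 0.05 or more. Most targets lie further right with siCyclinK#1 (red) than with siCyclinK#2 (blue), and most cell cycle genes further left, CDC20 at -1.60 and -0.77.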

How the data were processed

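Total RNA of A549 cells was sequenced in 9 libraries, 3 each for siCtrl, siCyclinK#1 and siCyclinK#2. The authors sequenced paired reads and deposited FPKM values for 56252 features per library, made with StringTie 1.3.3b per the labels. The aligner and annotation release are not given in the sources used here. The features carry Ensembl identifiers that fit GENCODE 29 (GRCh38). The 25125 features that name no reference gene were not used, rows of the same gene were summed, and 1344 features that join several genes cannot be split.

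Given gene length, 83.1% to 85.3% of values in a library came out as whole reads (within 0.05), and 26 members in every library, but this was not used as counts, because FPKM of StringTie are estimates. Replicates were not duplicates (chi-square of 7.86 to 11.0 per degree of freedom).

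The test was limma 3.58.1 (R 4.3.3) on log2(FPKM + 0.1) values (eBayes with trend, Benjamini-Hochberg over 21048 genes). Each siRNA was tested in 1 fit of 3 groups, and both together as 6 against 3 libraries. Exact permutation tests went through every split of the libraries, and 3 libraries against 3 cannot go below 0.1. The 95% intervals used scipy 1.17.1. On simulated data for siCyclinK#1 against siCtrl (19973 genes), 85 of 100 genes with a log2 change of 1 and 92 of 100 with 2 were recovered. There, 12 unchanged genes were called. The changed genes were drawn from those averaging about 1 FPKM or more, and the noise was normal with each gene's fitted spread. These figures do not carry over to genes at lower levels or to data in which many genes change. Library values were given for TRIML2, MDM2 and CDKN1A. They were also given for members changed over 2-fold the same way with each siRNA, in opposite directions, or over 2-fold between the siRNAs. Those of PMAIP1, PHLDA3, FAS and SPATA18, and of some libraries of APAF1, PLK2 and KITLG, were chosen after their values were seen. Alternatives were other pseudocounts, filters, scalings and thresholds, a replicate block, joined rows left out, and leaving out each library. The members and lists were chosen with earlier results of these data known.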

Additional observations from a re-analysis of the deposited data

Results flagged for a closer look

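The change against siCtrl differed between the siRNAs in 30 of the 40 members, by the direct limma test of siCyclinK#1 against siCyclinK#2 at an adjusted p under 0.05, beside 29.4% of all tested genes and 44.5% of those averaging 1 FPKM or more. The log2 difference (siCyclinK#1 minus siCyclinK#2) was above 2 for BTG2 (2.04). Differences of 1 to 2 were found for SESN2 (1.60), TP53INP1 (1.40), BBC3 (1.40), CDKN1A (1.35), SESN1 (1.26) and EDA2R (1.00). Smaller positive differences, of 0.5 to 1, were found for PPM1D (0.94), FDXR (0.93), FUCA1 (0.73), APAF1 (0.70), ZMAT3 (0.66), RRM2B (0.65), DRAM1 (0.61) and XPC (0.56). Those under 0.5 were found for TP53I3 (0.49), TRIML2 (0.48), FBXO22 (0.44), NINJ1 (0.44), PLXNB2 (0.43), TIGAR (0.42), ASCC3 (0.39), MDM2 (0.31), AEN (0.22) and DDB2 (0.22). Negative differences were found for GDF15 (-1.38), TNFRSF10B (-0.90), TRIAP1 (-0.64), TNFRSF10A (-0.56) and CCNG1 (-0.42). The other 10 members did not pass. The siCyclinK#1 and siCyclinK#2 guides target the same transcript, and the reason for the differences was not tested.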

How the results depend on the processing

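Counts of members called depended on the threshold. At a fold change over 3 and p under 0.01 the counts were 7 (siCyclinK#1), 1 (siCyclinK#2), 5 (both siRNAs together) and 2 (direct comparison), in place of 34, 26, 18 and 30. With both siRNAs together, the members called lower were 6 under median-ratio rescaling and 5 under quantile normalization (3 as reported), and a fit of 3 groups with the mean of both effects called 29 members, 10 of them lower. The members over 3-fold with both siRNAs were 3 with a pseudocount of 0.5 or 1, and those in the direct comparison were 1 with a pseudocount of 0.5 or 1 and under median-ratio rescaling. Without any 1 library, the members called ranged from 29 to 36 (siCyclinK#1), 24 to 27 (siCyclinK#2), 13 to 20 (both) and 29 to 32 (direct comparison). Those higher ranged from 24 to 28, 15 to 16, 11 to 16 and 25 to 27, those lower from 5 to 8, 9 to 11, 2 to 5 and 4 to 5, and those over 3-fold from 7 to 8, 1 to 1, 4 to 5 and 1 to 2. The count lower with both siRNAs reached 5 without siCyclinK#2 replicate 2. Median-ratio rescaling moved the median of all genes with siCyclinK#1 from 0.10 to -0.00 and that of the members from 0.67 to 0.52, and moved the members' median with siCyclinK#2 from 0.06 to -0.02. Differences near 0 changed sign: SESN1 with siCyclinK#2 (-0.041 under median-ratio rescaling, -0.078 under quantile normalization, -0.032 to 0.055 without 1 library), GDF15 with both siRNAs (-0.080 to 0.24 without 1 library) and ASCC3 with both (-0.043, -0.028, and -0.0020 to 0.090 without 1 library). The causes were not tested.

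The groups share replicate numbers in the labels, but the deviations of libraries with the same number were not related (correlations of -0.071 to 0.038 over 11243 genes), so the numbers give no pairing. A fit with the number as a replicate block called 32 (siCyclinK#1), 24 (siCyclinK#2), 16 (both) and 30 (direct comparison). It ended the calls of SESN2 and PLXNB2 with both siRNAs (adjusted p = 0.0995 and 0.0777), FAS and SPATA18 with siCyclinK#1 (0.0535 and 0.0697), and POLH and FUCA1 with siCyclinK#2 (0.0690 and 0.0687).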
